A study of Mus musculus with 9 samples.

Results

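Of 9 mouse brain samples hybridised to GeneChip Mouse Gene 1.0 ST arrays, 5 had a raised signal of Prnp, the gene of the prion protein, and these 5 arrays are set beside the other 4. The arrays were chosen by the measured value: a Prnp signal above 12 on the log2 scale, a value that rises by 1 when the signal doubles. The 5 arrays above it carry the labels model group 1, 2 and 3 and HPYD group 1 and 2, and are called the Prnp-high arrays. The other 4 are control group 1, 2 and 3 and the array labelled HPYD group 3. By the labels the control group is wild-type, the model group is APP/PS1 transgenic, and the HPYD group is APP/PS1 transgenic and was given the peptide HPYD, each with 3 arrays and all on a C57/6J background. According to the methods, the peptide was given through the nose at 33 mg/mL, 5 μL per day for 30 days, both other groups received saline, and the transgenic mice were bought at 8 months of age, with controls of the same age. Neither the APP/PS1 line, its promoter, the sex of the mice, the brain region nor the number of mice behind an array is stated in the labels or methods.

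APP/PS1 mice carry transgenes that raise the production of amyloid beta, and amyloid plaques form in their brains with age. In a widely used line these transgenes are driven by a prion protein promoter, so that Prnp probes can also read transgene RNA. Around plaques, microglia, the immune cells of the brain, leave their resting state and raise a programme of lysosomal, phagocytic and lipid genes that depends on the receptor Trem2 and its adaptor Tyrobp, while nearby astrocytes raise Gfap.

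Prnp lay between 11.52 and 11.81 in the other arrays and between 12.42 and 12.55 in the Prnp-high arrays. The lowest value inside was 12.42 in model group 2 and the highest outside was 11.81 in control group 2. The array labelled HPYD group 3 had the lowest Prnp of all, 11.52, and so goes against its label. Because the arrays were chosen by Prnp, the comparison of 5 with 4 arrays is a description without a test. Tests were made only between the labelled groups, with and without that array.

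The choice coincided exactly with the sex-linked genes. Xist, the RNA that silences 1 X chromosome in female cells, was 11.18 to 11.78 in the Prnp-high arrays and 5.20 to 5.69 in the other arrays. The Y-linked genes Uty, Eif2s3y and Kdm5d went the other way, with Uty at 3.83 to 4.25 in the Prnp-high arrays and 7.97 to 8.22 in the others. The transgene and the sex of the mice therefore cannot be told apart in any comparison of these arrays. Any other difference that follows the same split, such as one of genetic background, cannot be told apart from the transgene either. Other tissue moved with single arrays. The median of 28 skeletal muscle genes stood above the control mean by 1.97 for model group 1, 3.55 for model group 2 and 0.61 for HPYD group 2, and that of 20 genes of granulocytes by 2.77, 3.19 and 2.08, against -0.51 to 0.08 for both lists in the other arrays. The median of 11 cerebellar genes stood above it by 3.17 in model group 2 and by 2.99 in that labelled HPYD group 3, while 10 genes of striatal neurons were lower by 1.29 to 1.80 in model group 1 and 2, HPYD group 2 and the array labelled HPYD group 3. Defining markers such as Gabra6 of cerebellar granule cells were 11.35 and 11.29 in the cerebellum-rich arrays and at most 8.20 in the rest. In these brain pieces, more cells of a type and more RNA per cell cannot be told apart.

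These facts leave 2 narrower sets of arrays, picked after the values were seen, that differ less in cerebellar and striatal genes. In the first, model group 3 and HPYD group 1 stand against control group 1, 2 and 3, none of which had raised muscle, granulocyte or cerebellar genes beyond a cerebellar median of 0.49 in model group 3. In the second, model group 2 stands against the array labelled HPYD group 3, both rich in cerebellar genes, although model group 2 alone carries the muscle and granulocyte signal. Other regional genes still differed within the sets. In the first, 10 of 10 choroid plexus genes and 11 of 11 thalamic genes averaged higher in model group 3 and HPYD group 1, by medians of 0.85 and 0.31, although control group 2 alone stood 1.02 and 0.77 above the control mean. In the second, 14 hypothalamic and pituitary genes were all lower in model group 2, with a median difference of -1.01. Their part in the results was not tested. Sex differs within both sets as well. Differences in these sets are given below for some of the genes and lists.

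Promoter sequences are shown for 4 genes. They are the 250 bases before the start of transcription in RefSeq annotation of GRCm38.p6, 5′ to 3′ on the gene's strand. Prnp is shown because its level chose the arrays, and Cst7 because it had the largest difference of any autosomal gene. Ctsc and Fcgr4 are shown because their windows hold the letters GAGGAAGT, the core bound by the myeloid transcription factor PU.1, on 1 strand or the other. These letters, or their complement ACTTCCTC, are in capitals, and they are absent from the windows of Prnp and Cst7.
Prnp (chr2:131909678-131909927, + strand): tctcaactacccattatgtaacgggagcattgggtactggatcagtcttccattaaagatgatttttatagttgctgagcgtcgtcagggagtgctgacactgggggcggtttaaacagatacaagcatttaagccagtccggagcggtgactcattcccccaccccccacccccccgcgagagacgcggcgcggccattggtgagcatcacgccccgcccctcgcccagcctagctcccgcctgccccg
Cst7 (chr2:150570165-150570414, + strand): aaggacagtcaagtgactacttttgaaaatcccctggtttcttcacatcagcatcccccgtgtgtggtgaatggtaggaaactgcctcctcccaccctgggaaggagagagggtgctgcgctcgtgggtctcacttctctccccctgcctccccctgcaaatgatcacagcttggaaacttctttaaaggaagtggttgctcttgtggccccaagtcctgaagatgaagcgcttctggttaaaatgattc
Ctsc (chr7:88277835-88278084, + strand): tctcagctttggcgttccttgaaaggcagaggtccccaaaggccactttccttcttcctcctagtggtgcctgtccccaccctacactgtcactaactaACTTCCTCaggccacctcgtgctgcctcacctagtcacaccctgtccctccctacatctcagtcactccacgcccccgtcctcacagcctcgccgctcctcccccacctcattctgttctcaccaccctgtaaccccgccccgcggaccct
Fcgr4 (chr1:171018676-171018925, + strand): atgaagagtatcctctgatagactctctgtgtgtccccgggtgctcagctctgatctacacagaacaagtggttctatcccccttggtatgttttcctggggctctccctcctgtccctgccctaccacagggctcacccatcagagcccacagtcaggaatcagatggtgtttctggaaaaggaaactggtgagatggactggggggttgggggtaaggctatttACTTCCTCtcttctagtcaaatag

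Among 19938 genes, 185 were higher in every Prnp-high array than in every other array, which is 0.928% of the genes, and 67 were lower in every one, which is 0.336%. The 185 higher genes had a median log2 difference of 0.47, with 91 over 0.5 and 20 over 1, and the 67 lower genes one of -0.16. Over all genes the median difference was -0.02. The balance of higher and lower genes depended on the scaling, with 169 higher and 202 lower when the arrays were shifted to 1 median and 201 higher and 166 lower after quantile normalization. Of the 185 higher genes, 49 belonged to the lists used here and 41 to lists of plaque-associated microglia, complement, antigen presentation, Fc and lectin receptors, Toll-like receptors, interferon response or lysosome. A RefSeq promoter window was found for 151 of the 185 genes. The letters GAGGAAGT stood on either strand in 7 of these (4.64%), Cd37, Ctsc, Fcgr4, Pik3cg, Renbp, Samsn1 and Vav1, against 2.59% of all 15614 windows. The interferon-response core GAAANNGAA stood in 20 (13.2%), against 7.99% of all windows, and TCACGTG, the core of the lysosomal CLEAR element, in 6 (3.97%), against 4.45%. The first motif shared a window with each of the other two in 1 gene, without overlapping letters. Spi1, the gene of PU.1 itself, named after its values were seen, was 8.47, 8.35 and 8.07 in the 3 arrays with raised muscle genes and 7.57 and 7.55 in model group 3 and HPYD group 1, against 6.74 to 7.51 in the others. The values of model group 3 and HPYD group 1 were thus just above the 7.51 of control group 3. The difference was 0.92 over all 9 arrays, 0.49 without the muscle-rich arrays and 0.37 in the first narrower set. A match of letters is a description of the sequence only.

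App, the precursor of amyloid beta, followed Prnp. It was 12.95 to 13.02 in the Prnp-high arrays and 12.53 to 12.62 in the other arrays, a difference of 0.42, or 1.34-fold, with no overlap. The difference was 0.42 in both of the narrower sets. The labels and methods do not say whether the probes read the mouse gene, the transgene or both. The genes that process the precursor differed far less. Of the 16 measured members of the amyloid precursor, secretase and prion family, only Prnp, by which the arrays were chosen, and App were without overlap. Adam17, an alpha-secretase, came next at 0.13. Bace1, the beta-secretase, was 10.36 ± 0.11 (SD, n = 5 arrays) in the Prnp-high arrays and 10.35 ± 0.12 (n = 4) in the others. Psen2 and Ncstn, of the gamma-secretase complex, differed by 0.01 and 0.03, Adam10 by 0.02, and the related precursors Aplp1 and Aplp2 by -0.01 and 0.01.

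**Figure D1:**
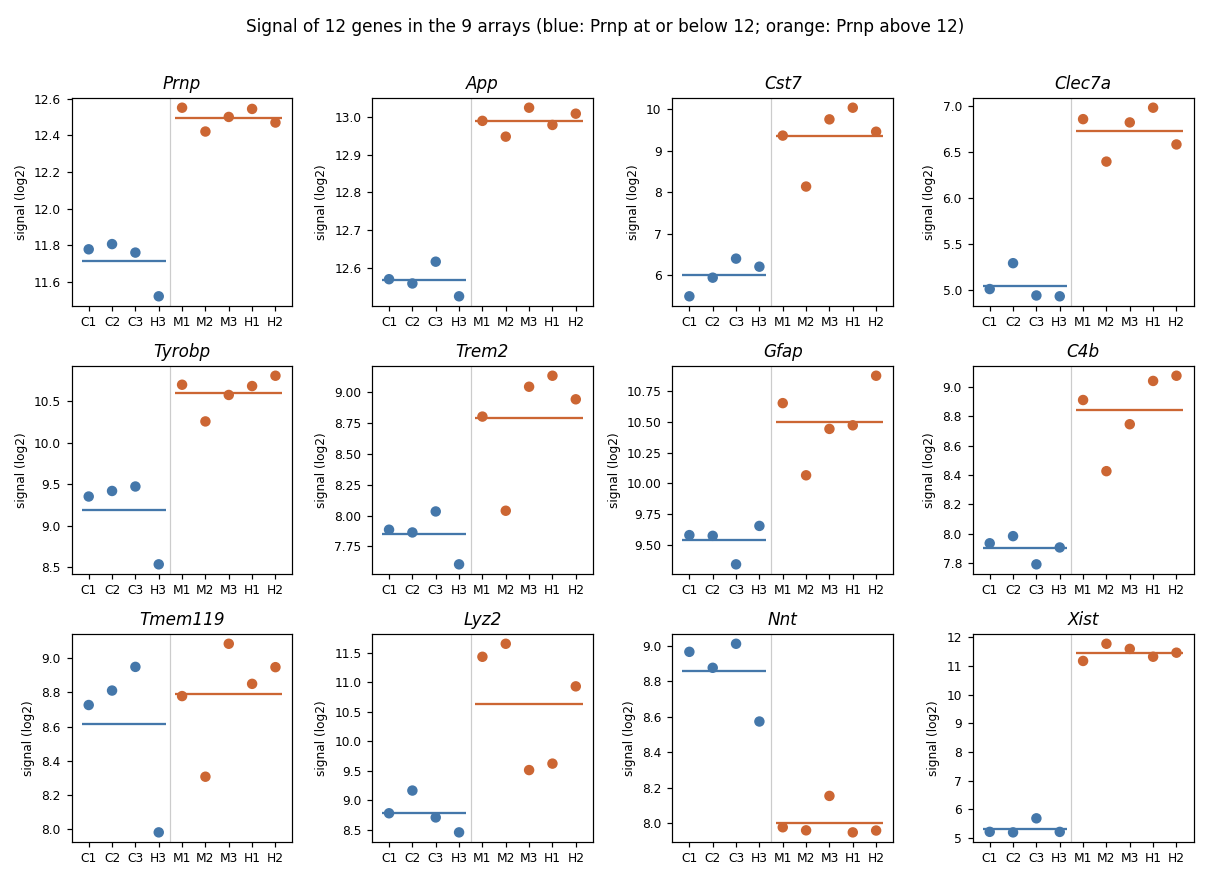
Signal (log2, vertical axes, each with its own range) of 12 genes in each array (horizontal axes, with C for control, M for model and H for HPYD). Blue points are the 4 arrays with Prnp at or below 12 and orange points the 5 above it, with lines at their means. In panels without overlap H3 lies on the side of the control arrays by definition, because it is counted with them. For Nnt it lies between both sets, and Lyz2 is highest in M1, M2 and H2.

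The genes of plaque-associated microglia held the largest share of members without overlap of the 30 lists. Each of the 29 genes measured averaged higher in the Prnp-high arrays, with a median difference of 0.56, and 16 of the 29 (55.2%) were without overlap, against 0.928% of all genes. Cst7, an inhibitor of lysosomal cysteine proteases, stood at 9.36, 8.14 and 9.75 in the model group, in the order of the labels, and HPYD group 1 and 2 had 10.04 and 9.46. The controls had 5.50, 5.95 and 6.40, and the array labelled HPYD group 3 had 6.21. The 2 sets of arrays were thus far apart, with a difference of 3.34, or 10.1-fold, and model group 2 was the lowest of the Prnp-high arrays. Clec7a, the beta-glucan receptor dectin-1, was 6.40 to 6.98 in the Prnp-high arrays and 4.93 to 5.29 in the others. Tyrobp, the signalling adaptor of Trem2, was 10.26 to 10.81 in the Prnp-high arrays and 9.35 to 9.47 in the controls, with 8.54 for the array labelled HPYD group 3. That array was thus well below the controls for Tyrobp, so the difference of 1.41 over all 9 arrays exceeded the 1.21 of the first narrower set. Trem2 itself, a receptor for lipids and lipoproteins, was 9.05 and 9.14 in model group 3 and HPYD group 1 but only 8.04 in model group 2, just above the 8.03 of control group 3. Cd68, a glycoprotein of phagocytic lysosomes, was 8.81 to 9.67 against 7.61 to 8.69, and Itgax, the integrin CD11c, 5.22 to 6.71 against 4.93 to 5.18. Trem2, Cd68 and Itgax were named after their values were seen.

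The chemokines did not behave alike. Ccl6 was 7.82 to 8.28 in the Prnp-high arrays and 6.11 to 6.51 in the others, without overlap. Ccl3, a chemokine made by activated microglia, had a larger mean difference of 1.94, but model group 2 had 7.17 and the array labelled HPYD group 3 had 7.29, so the groups overlapped. In the arrays without raised cerebellar genes Ccl3 was 8.40 to 9.04 in the Prnp-high arrays and 5.85 to 6.58 in the controls. Apoe, the apolipoprotein taken up through Trem2, was 12.45 to 12.63 against 12.33 to 12.48, a difference of 0.09 with overlap, and Axl, a receptor tyrosine kinase, differed by 0.14 without overlap.

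Within this list the members divided by whether they followed the granulocyte genes. Lyz2, the lysozyme of macrophages and neutrophils, was 11.43, 11.65 and 10.93 in model group 1 and 2 and HPYD group 2, and 9.51 and 9.62 in model group 3 and HPYD group 1, against 8.45 to 9.16 in the other arrays. Cybb, the catalytic subunit of the phagocyte oxidase, was 9.33, 9.64 and 8.46 in the same 3 arrays but 6.46 and 6.51 in model group 3 and HPYD group 1, within the 6.30 to 6.53 of the other arrays. Without the 3 arrays with raised muscle genes the difference fell from 1.86 to 0.79 for Lyz2, from 1.64 to 0.05 for Cybb and, outside the list, from 1.32 to 0.42 for Igsf6, a myeloid receptor. It was as large or larger without them for Cst7 (3.88), Clec7a (1.86), Tyrobp (1.43), Cd68 (1.42), Itgax (1.36) and Trem2 (1.24). The median of the list without them was 0.43. The first narrower set also leaves out the array labelled HPYD group 3. There these genes differed, in the same order, by 3.95, 1.82, 1.21, 1.23, 1.32 and 1.16. In model group 2 against the array labelled HPYD group 3, 23 of the 29 members were higher, with a median of 0.25, and over all genes 7311 of 19938 were higher, with a median of -0.04.

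The genes of resting microglia differed less. None of the 19 measured was without overlap, which in so short a list is near the 0.928% of all genes. P2ry12, the purinergic receptor that marks resting microglia, was 7.27 to 8.04 in the Prnp-high arrays and 7.07 to 7.84 in the others, and Tmem119 was 8.31 to 9.08 against 7.98 to 8.95. For both, the lowest value in each set came from a cerebellum-rich array, model group 2 and the array labelled HPYD group 3. The list as a whole followed the same pattern, since its median lay 0.28 and 0.54 below the control mean in these 2 arrays and 0.16 to 0.30 above it in the other Prnp-high arrays. Compared within the narrower sets, 17 of the 19 members were higher in model group 3 and HPYD group 1 than in the controls, with a median of 0.23, where 9003 of all 19938 genes were. In model group 2 against the array labelled HPYD group 3, 16 were higher, with a median of 0.24. Fcrls, an Fc receptor-like protein of microglia, had the largest difference in the first set, 0.83, and differed by 1.15 in the second. Trem3, also on the list, was high only in the 3 arrays with raised granulocyte genes, at 7.92, 8.39 and 7.37, against 5.51 to 5.90 in the other 6.

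**Figure D2:**
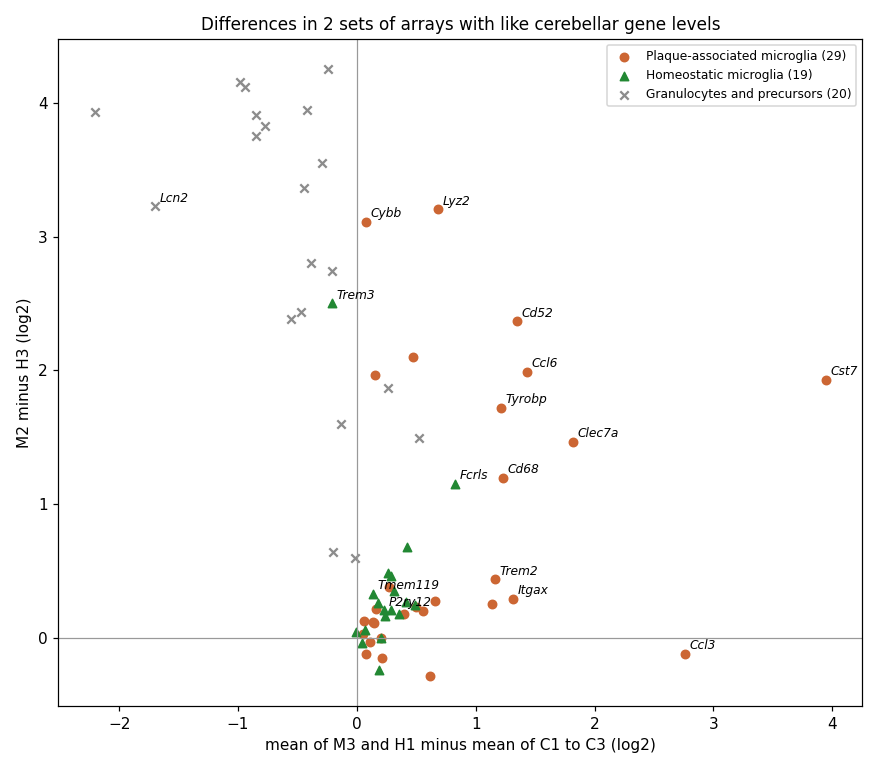
Each point is a gene. The horizontal axis gives the mean of model group 3 and HPYD group 1 minus the mean of the 3 controls, and the vertical axis gives model group 2 minus the array labelled HPYD group 3, both on the log2 scale. Plaque-associated genes such as Cst7, Clec7a, Tyrobp and Cd68 lie above 1 on both axes, resting microglia genes mostly a little above 0 on both, and granulocyte genes high on the vertical axis only.

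Receptors for antibodies and sugars were the next group. Of 17 measured members 8 (47.1%) were without overlap, against 0.928% of all genes, and the median difference was 0.59. Fcer1g, the shared gamma chain of the activating Fc receptors, was 9.88 to 10.24 in the Prnp-high arrays and 8.76 to 9.34 in the others, a difference of 0.96. Fcgr3 and the inhibitory receptor Fcgr2b differed by 0.80 and 0.71, and by 0.86 and 0.71 without the 3 muscle-rich arrays. In the first narrower set, which also leaves out the array labelled HPYD group 3, they differed by 0.60 and 0.65. Fcgr4, whose promoter is shown above, was 5.72 and 5.86 in model group 1 and 2 but 4.96 to 5.08 in the other Prnp-high arrays, against 4.67 to 4.84. Clec12a, an inhibitory lectin of myeloid cells, reached 8.36 and 8.55 in model group 1 and 2, whereas model group 3 and HPYD group 1 had 6.03 and 6.18, within the control range of 5.66 to 6.32. Without the 3 muscle-rich arrays the median of the list was 0.22. It was 0.13 in the first narrower set and 0.98 in the second, where model group 2 is one of the muscle-rich arrays. The part of the muscle-rich arrays in the result was not tested.

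Complement genes followed in 2 ways. C4b, the classical-pathway component that astrocytes also make, was 8.43 to 9.08 in the Prnp-high arrays and 7.79 to 7.98 in the others. C3ar1, the receptor of the C3a fragment, was 7.55 to 8.34 against 7.06 to 7.33. Itgb2 and Itgam, the chains of complement receptor 3, differed by 0.97 and 0.73, and by 0.54 and 0.49 without the muscle-rich arrays. C1qa and C1qb, of the first component C1q, overlapped only through model group 2: C1qa was 8.68 there, 9.13 to 9.38 in the other Prnp-high arrays and 8.45 to 8.76 in the controls. Within the narrower sets C1qa differed by 0.70 and 0.77 and C1qb by 0.53 and 0.78. In all, 5 of 16 complement genes (31.2%) were without overlap, against 0.928% of all genes, and the median difference was 0.41. It was 0.22 without the muscle-rich arrays and 0.20 in the first narrower set, where 11 of the 16 were higher.

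Lysosomal genes showed small differences in many members. Of the 26 measured, 10 (38.5%) were without overlap, against 0.928% of all genes, with a median difference of 0.18. The list median lay 0.16 to 0.21 above the control mean in all 5 Prnp-high arrays and 0.06 above it in the array labelled HPYD group 3. Laptm5, a lysosomal membrane protein of blood and microglial cells, had the largest difference, 0.70. Ctsz, a carboxypeptidase, was 10.10 to 10.34 against 9.52 to 9.86, Ctsd, an aspartic protease, 11.86 to 12.14 against 11.49 to 11.73, and Ctsh 8.20 to 8.40 against 7.48 to 7.93. Ctss, the protease that trims the invariant chain of class II molecules, differed by 0.68, and Ctsc, which activates granule proteases and whose promoter is shown above, by 0.52. In the narrower sets Ctsc differed by 0.26 and 1.01, and the list median was 0.20 and 0.13. Psap, the precursor of the saposins, was the same in both sets within the spread, 12.85 ± 0.02 (SD, n = 5) against 12.84 ± 0.01 (n = 4).

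**Figure D3:**
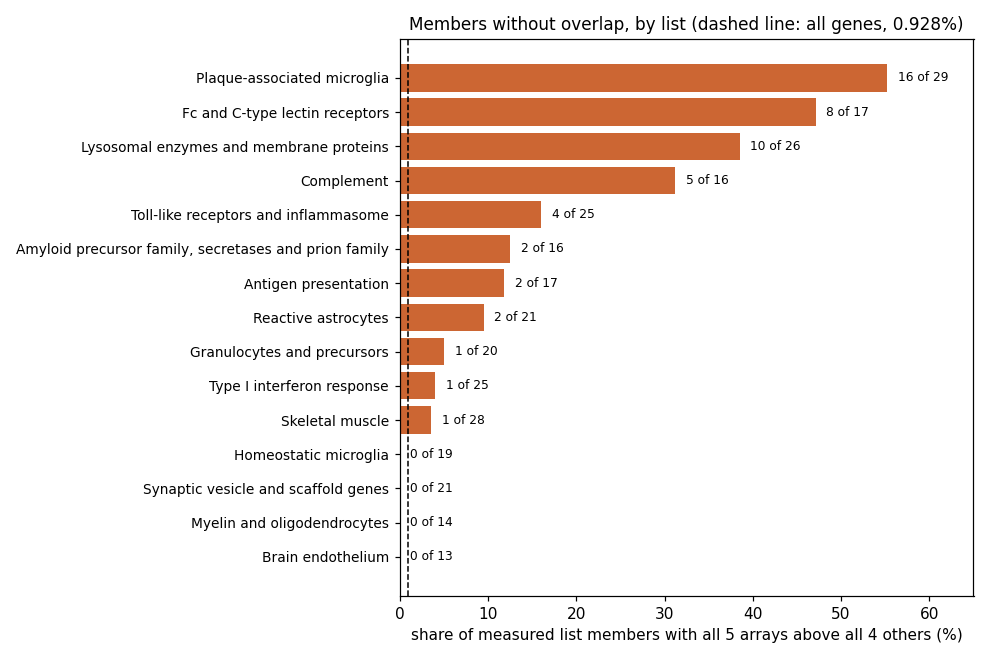
Bars give, for each list, the share in percent of measured genes (horizontal axis) that were higher in all 5 Prnp-high arrays than in all 4 others, with the counts beside them, and the dashed line marks the 0.928% of all genes. Plaque-associated microglia reach 55.2%. The genes counted in the amyloid precursor list are App and Prnp, and Prnp is without overlap by the choice of arrays. Lists of resting microglia, synapses, myelin and endothelium stand at 0, which in lists this short is near the share of all genes.

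Sensors of microbial patterns were mixed. Ly86, a partner of a Toll-like receptor homologue on myeloid cells, was 9.91 to 10.79 in the Prnp-high arrays and 9.17 to 9.66 in the others, and Tlr13 and the inflammasome sensor Naip2 differed by 0.65 and 0.64. Of 25 members 4 (16%) were without overlap, against 0.928% of all genes. The median was 0.22, with 0.19 and 0.33 in the narrower sets. Antigen presentation showed 2 of 17 (11.8%), Ctss and B2m, the light chain of class I molecules (12.09 to 12.36 against 11.77 to 11.95). The class II genes were high only in the muscle-rich arrays: H2-Aa was 8.91, 8.59 and 8.64 there, 7.25 and 7.57 in model group 3 and HPYD group 1, and 7.12 to 8.01 in the other arrays. Without those 3 arrays H2-Aa and H2-Ab1 differed by -0.16 and -0.08 and the list median was -0.01. The interferon response list had 1 of 25 members (4%) without overlap, the RNA sensor Ifih1 (6.77 to 7.10 against 6.56 to 6.72). The median of this list fell from 0.22 to 0.04 without the same arrays.

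In astrocytes, Gfap, the intermediate filament of reactive cells, stood at 10.65, 10.07 and 10.44 in the model group, in the order of the labels, while HPYD group 1 and 2 had 10.47 and 10.88. The controls ranged from 9.34 to 9.58, and the array labelled HPYD group 3 had 9.65. The difference was 0.97, or 1.96-fold, with 0.96 in the first narrower set and 0.41 in the second. Gfap and C4b were the 2 of 21 genes (9.52%) of reactive astrocytes without overlap, against 0.928% of all genes. Lcn2, often listed for reactive astrocytes but also a neutrophil protein, was 11.41 to 11.99 in the 3 granulocyte-rich arrays and 7.57 and 8.15 in the other Prnp-high arrays, below the 8.77 to 10.13 of the remaining 4. The list median was 0.22 over all arrays and 0.05 without the muscle-rich arrays.

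Lists of neurons, synapses, myelin, endothelium, resting astrocytes, immediate early genes and tau kinases held 0 members without overlap in either direction. Over all genes 0.928% were higher and 0.336% lower without overlap, so a count of 0 in lists this short is near that share. The medians of these lists lay between -0.06 for tau and its kinases and 0.22 for myelin. The myelin median was 0.46 above the controls in model group 3 and HPYD group 1, but control group 2 alone stood 0.36 above the control mean and the array labelled HPYD group 3 stood 0.45 above it, so the spread among the other arrays was as large.

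**Figure D4:**
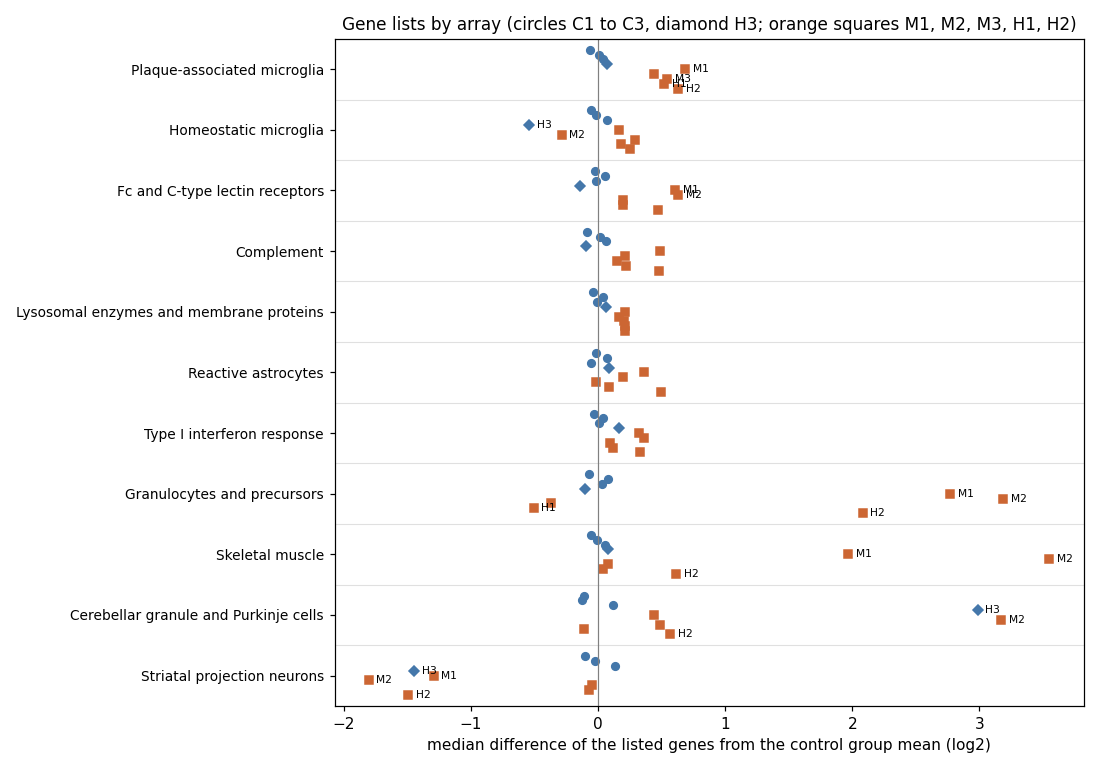
Median difference (log2, horizontal axis) of the measured genes of 11 lists from the control group mean, in each of the 9 arrays (labels as in the plot of single genes, written beside far points). Blue circles are C1 to C3, the blue diamond is H3 and orange squares are the Prnp-high arrays. The plaque-associated list separates all 5 orange points, at 0.44 to 0.69, from the blue points, whereas the muscle and granulocyte lists separate M1, M2 and H2, and the cerebellar list M2 and H3.

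Among the genes that were lower, the 3 Y-linked genes were followed by a few autosomal ones. Nnt, the transhydrogenase that makes NADPH in the inner mitochondrial membrane and of which C57BL/6J mice are known to carry a deletion, was 7.95 to 8.15 in the Prnp-high arrays and 8.87 to 9.01 in the controls, and 8.57 in the array labelled HPYD group 3. That array thus lay between both sets. The same held for Wdfy1, an endosomal adaptor of Toll-like receptor signalling, at 7.01 to 7.22, 7.84 to 8.12 and 7.64. The labels give all 9 arrays the same background, and whether a difference in background lies behind Nnt or Wdfy1 was not tested. For Ndst4, an enzyme of heparan sulphate synthesis, the values were 7.84 to 8.43 against 8.55 to 9.15, with 8.81 in the array labelled HPYD group 3. Scn9a, a voltage-gated sodium channel, was 6.19 to 7.04 in the Prnp-high arrays, 7.15 to 7.30 in the controls and 8.01 in the array labelled HPYD group 3, which stood above every control. Nnt was the only one of 14 genes of mitochondrial NADPH and peroxide defence without overlap, where 0.336% of all genes were lower in this way. On the X chromosome, 7 of 8 listed genes averaged higher, among them genes that escape silencing. Eif2s3x was 11.49 to 11.69 against 11.01 to 11.20 and Kdm5c 9.28 to 9.48 against 8.90 to 9.26. Kdm6a and Ddx3x differed by 0.38 and 0.22 with overlap, and Usp9x by -0.09, also with overlap. Of the 8 genes of this list, 3 (37.5%) were without overlap, against 0.928% of all genes. Usp9y and Zfy1, also on the Y chromosome, were at most 4.02 in all 9 arrays.

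Across the 185 higher genes the array labelled HPYD group 3 was below all 3 controls for 81, within their range for 69 and above all of them for 35. For the 67 lower genes these counts were 19, 26 and 22. These genes were counted only where it lay below every Prnp-high array for the higher genes, and above every one for the lower genes. Genes where it lay with the Prnp-high arrays were thus left out by the choice. Leaving it out gave 493 higher and 423 lower genes without overlap, although fewer arrays also overlap less. The counts therefore do not show on which side this array lies.

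By label, the genotype was tested with limma as the mean of the model and HPYD groups minus the control group. Of 19938 genes, 0 (0%) passed an adjusted p under 0.05 over all 9 arrays, with a smallest adjusted p of 0.77, and 980 had an unadjusted p under 0.05. In the fit of 8 arrays that omits HPYD group 3, 11 genes (0.0552%) passed, 6 higher and 5 lower in the transgenic groups. This array was left out with its values known, so the second fit compares the 5 Prnp-high arrays with 3 of the other 4 and its p-values are a description. Of the 11 genes, 1 was Prnp, by which the arrays were chosen and for which no test is given. The other higher genes were Xist, Ccl6 (log2 difference 1.61, standard error 0.11, limma adjusted p = 0.0047), Tyrobp (1.21, 0.10, adjusted p = 0.0162), Clec7a (1.66, 0.15, adjusted p = 0.0229) and Cd84, a receptor of the SLAM family (0.79, 0.08, adjusted p = 0.0434). The lower genes were Uty, Eif2s3y, Kdm5d, Nnt (log2 difference -0.96, standard error 0.06, limma adjusted p = 0.0047) and Wdfy1 (-0.94, 0.09, adjusted p = 0.0251). App and Cst7 were just short, each with a limma adjusted p of 0.0526, and Gfap had 0.204. In the exact two-sided permutation test of 6 transgenic against 3 control arrays, 0.0238 is the smallest possible p. Gfap, Ccl3, Nnt, Wdfy1 and Eif2s3x reached it, but so did others of varied kinds. Among them were Lipf, the muscle gene Myot, the pituitary hormone gene Prl, Aqp4, Kdm6a and Usp9x. Cst7 had an exact p of 0.0476, Clec7a of 0.0952, App of 0.0952, Tyrobp of 0.143, Trem2 of 0.167 and Scn9a of 0.452, none of them adjusted over genes.

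The treatment was compared among the Prnp-high arrays as HPYD group 1 and 2 minus model group 1, 2 and 3. Of 19938 genes, 0 (0%) passed limma's adjusted p under 0.05, with 265 at an unadjusted p under 0.05, and 0 (0%) passed with all 9 arrays, with 393 unadjusted. The plaque-associated list had a median difference of 0.01 between the treated and untreated Prnp-high arrays, with 17 members higher and 12 lower. Cst7 was higher by 0.66 (standard error 0.49), App by 0.01 (standard error 0.06), Clec7a by 0.09 (0.19) and Trem2 by 0.41 (0.27), each with a limma adjusted p of 1. With the array labelled HPYD group 3 kept in the HPYD group, the differences were -0.52 for Cst7 (standard error 0.92), -0.15 for App (0.12), -0.53 for Clec7a (0.46) and -0.07 for Trem2 (0.40), with adjusted p of 1, so all 4 changed sign. The genes with the smallest unadjusted p for a higher level without that array included Fmo2, a monooxygenase, at 0.57 (standard error 0.08), and Slc6a3, the dopamine transporter, which was 9.22 and 9.72 in HPYD group 1 and 2 and 6.59 to 7.80 in the model group. Chrna6, a nicotinic receptor subunit of dopamine neurons, was 6.86 and 7.21 against 5.40 to 6.29. Btg2, an early response gene, was 7.90 and 8.23 against 8.40 to 8.85. None of these passed the test. The muscle and granulocyte lists differed between the same arrays by medians of -1.43 and -0.83 and the cerebellar list by -0.96.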

How the data were processed

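A single table of log2 values, with probe sets as rows and arrays as columns, was deposited by the authors. MAS5 is the tool that the submitters' processing notes give, with no version. How the background was corrected and the arrays normalized is not stated in labels, methods or table. Values lay between 2.37 and 14.01 and array medians between 6.69 and 6.82, and they were used as deposited. Of 35556 probe sets, 21789 had 1 symbol, 1621 several and 12146 none. Genes were represented by their probe set of highest mean, which gave 19938 genes.

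The arrays, the 30 gene lists (474 of 517 symbols matched) and the rules were chosen with earlier results of these data known. The comparison of 5 with 4 arrays has no test. The labelled groups were fitted with limma 3.58.1 in R 4.3.3 (3 group means, 6 residual and 2.13 prior degrees of freedom, Benjamini-Hochberg adjustment over all genes), and single genes were tested by exact permutation. The fit was tested on simulated data. Because no source ties arrays to separate mice, the p-values reflect only how these samples spread, perhaps for technical reasons, and the number of arrays limits precision. Named were Prnp, App, Nnt, the secretase and sex-linked lists, the 10 largest differences without overlap in each direction, genes called by limma, the 5 members of a list with the largest difference, and the top 5 by p, higher and lower, for HPYD against model. Any other gene was named after its values were seen, among them P2ry12, Tmem119, Apoe, Axl, Cybb, B2m, Ifih1, Ctsd, Psap, C1qb, Spi1, Fcgr4 and the genes with the PU.1 letters. Promoter windows came from RefSeq. Alternatives were other scalings, a filter on dim genes, the mean of probe sets, the replicate number as a block, and leaving out arrays.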

Additional observations from a re-analysis of the deposited data

Results flagged for a closer look

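Of 125 single genes and list medians examined over the 6 arrays labelled APP/PS1, 22 had 1 array far from the other 5 by Dixon's criterion, and in 21 of these the array was the one labelled HPYD group 3. Chance alone meets the criterion in about 1 of 20 cases, but many of these genes were named because that array lay apart from the Prnp-high arrays, so the count cannot be set against that rate. For the genes related to the choice of arrays and to sex, its signal was 11.52 for Prnp, 12.53 for App, 5.22 for Xist, 8.20 for Uty, 7.96 for Eif2s3y and 7.84 for Kdm5d. For the microglial and lysosomal genes it was 6.11 for Ccl6, 6.01 for Cd52, 4.93 for Clec7a, 8.54 for Tyrobp, 5.45 for Cd84, 6.85 for Itgam, 8.76 for Fcer1g, 7.19 for Fcgr3, 9.23 for Laptm5, 7.48 for Ctsh, 7.28 for Ctsc and 6.44 for Tlr13. For the lower genes it was 8.57 for Nnt and 7.64 for Wdfy1. The median of the lysosomal list was 0.06 above the control mean in it. The remaining case was Lipf, the gastric lipase, at 11.79 in model group 2 and 4.55 to 5.71 in the other 5 arrays.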

How the results depend on the processing

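The genotype call depended on 1 array: leaving out each array in turn gave 0 to 11 genes, the latter without the array labelled HPYD group 3. With limma's p left unadjusted, 980 genes were under 0.05 with that array and, chosen after seeing the data, 758 without it. For HPYD against model the counts were 393 and 265. The replicate numbers did not pair the arrays, since the deviations of same-numbered arrays from their group means correlated across genes from -0.32 to 0.18, and 2 of 9 correlations were over 0.1. With the replicate number as a block, 0 genes passed for genotype and 0 for HPYD against model, and without the array labelled HPYD group 3, a setting chosen after seeing the data, 5 and 0.

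The 252 genes without overlap became 300 to 916 when 1 array was left out, the most without the array labelled HPYD group 3, which is also the set whose labels and Prnp levels go the same way (916). They became 2295 without the 3 arrays with raised muscle genes and 3580 in the first narrower set, chosen after seeing the data, since fewer arrays overlap less. Of the 252 genes, 160 were among the 371 found after shifting the arrays to 1 median, which moved the median of all genes to -0.03, 185 among the 367 after quantile normalization, and 199 remained after the filter on dim genes. Some alternative changed the sign of 17 of 30 list medians and 22 of 95 named gene values. Among these were the medians of striatal genes (-0.62 to 0.29), cerebellar genes (0.19 to -0.49) and immediate early genes (0.06 to -0.24), and the differences of Lcn2 (0.81 to -1.70), Gabra6 (1.00 to -0.71), Drd2 (-0.66 to 0.38) and Rgs9 (-0.78 to 0.32). The values that follow are the sign changes where both the value over all 9 arrays and its move exceeded the spread between arrays, 7 for list medians and 10 for genes, once for each alternative. The median was 0.0105 for Y-linked genes after the filter on dim genes and 0.0207 for neurons without control group 3. Without the 3 muscle-rich arrays it was -0.0104 for antigen presentation, -0.45 for granulocytes and -0.14 for erythroid cells, and the differences were -0.23 for Trem3, -0.16 for H2-Aa, -0.0831 for H2-Ab1, -0.0476 for Isg20, -0.14 for Rsad2 and 0.0049 for Tac1. In the first narrower set the medians were -0.43 for granulocytes and -0.10 for erythroid cells, and the differences -0.21 for Trem3, -0.0195 for H2-Aa, -0.0187 for H2-Ab1 and -0.16 for Rsad2. The causes were not tested. The plaque-associated median stayed between 0.43 and 0.60 under all 16 alternatives. In model group 2 against the array labelled HPYD group 3, which was not among these alternatives, it was 0.25.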
